A study of Sus scrofa with 18 samples.

Results

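The genes described here are those that cells use when amino acids run short or when proteins misfold in the endoplasmic reticulum (ER). A list of 39 symbols was matched to the gene names of the deposited count tables, and 37 of them had a row among 15240 genes, 22 of 23 amino acid stress genes and 15 of 16 ER folding genes. The 2 listed genes without a row under their symbol were ATF4 and SDF2L1. All 37 passed the filter on low counts in each comparison. The list was drawn up with earlier results of these libraries known, in which PCK2 and STC2 led the libraries labelled ST8Sia6 plasmid over the GFP control libraries. Values of these genes in that comparison are therefore given as a description, with no test, and they support nothing here.

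When amino acids are scarce or unfolded proteins accumulate, kinases phosphorylate the translation initiation factor eIF2, which lowers general protein synthesis while the transcription factor ATF4 is translated more. ATF4 then raises genes for amino acid synthesis and uptake and, under lasting stress, the transcription factor DDIT3, also called CHOP. The unfolded protein response has further branches through ATF6 and through IRE1 with XBP1, which raise the chaperones, disulfide isomerases and degradation factors of the ER, and secreting cells rely on these to fold the proteins they secrete.

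The series measured total RNA of cells labelled as primary porcine kidney endothelial cells, bought from a supplier and grown on gelatin in endothelial medium. The GFP control label covers cells given a control GFP plasmid, and the ST8Sia6 plasmid label names cells given a plasmid for the sialyltransferase ST8Sia6. Transfection used Lipofectamine LTX, with collection 24 hours later. Cell-cell interaction libraries came from cells co-cultured with peripheral blood mononuclear cells, and the label does not say which plasmid those cells carried. Wild type names cells with no plasmid given in the label, and the single library named KEC plus all cells is called a negative there, with no further treatment given. The labels gave 5 libraries each to GFP control, to the ST8Sia6 plasmid and to cell-cell interaction, with 2 for wild type and a single KEC plus all cells library. The series text speaks of individual experiments, but no label ties a library to one. The p-values therefore measure the spread between these libraries, which may be partly technical. Libraries next to each other in series order were close in pairs for genes such as HSPA5, an ER chaperone, also across labels. HSPA5 had 843 and 856 CPM in GFP control 1 and 2 and 1878 and 1700.1 CPM in GFP control 3 and 4. It had 1091 CPM in GFP control 5 and 1189 CPM in ST8Sia6 plasmid 1. The tests take all libraries as independent, so their p-values may be too small. In a pellet that could hold more than 1 cell type, fewer cells of a type and less RNA per cell cannot be told apart.

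Several libraries went against their labels or stood apart, which touches each result below. The fold changes in the authors' deposited table weigh GFP control 5 on the ST8Sia6 plasmid side. They weigh ST8Sia6 plasmid 4 and 5 on the side of co-cultured GFP cells and wild type 1 on the side of co-cultured ST8Sia6 cells. These 4 libraries were thus used there under another name. The same weights place cell-cell interaction 1 and 2 with co-cultured GFP cells and cell-cell interaction 3 to 5 with co-cultured ST8Sia6 cells. By those weights, cell-cell interaction over GFP control mixes plasmid with co-culture, and their parts cannot be told apart in that comparison. Counts of the ST8SIA6 gene did not follow the labels either, at 59, 0, 3, 0 and 61 in the libraries labelled ST8Sia6 plasmid, 0, 27, 0, 5 and 1 in GFP control and 0, 439, 0, 24 and 2 in cell-cell interaction. Whether transcripts of the plasmid would be counted under that gene is not given in the sources used here, so the label is used as a name only. Totals ran from 14867035 to 33301008 counts. Mitochondrially encoded genes took 1.22% to 4.32% of counts in 12 libraries and 13.8% to 25.4% in 6, namely cell-cell interaction 1 to 4 and ST8Sia6 plasmid 4 and 5, which were also the 6 shallowest. The summed level of 8 kidney epithelial markers ran from 1745 to 2585 CPM in GFP control and from 1015 to 1618 CPM in cell-cell interaction. For 8 endothelial markers, mostly FLT1, these ranges were 47.0 to 61.5 CPM and 79.9 to 172 CPM. The defining endothelial genes CDH5, VWF, KDR and TEK had no row, and PECAM1 and CLDN5 had medians of 2.43 and 0.186 CPM over all libraries, against 1061 CPM for the epithelial keratin KRT8 and 119 CPM for CDH1. Of the epithelial list, KRT19 and PAX8 also had no row, and EPCAM and CDH16 had medians of 1.36 and 5.15 CPM. Only 11927 of 15240 genes carried a symbol, so a gene without a row under its name may still have been counted. The KRT8 and CDH1 levels go against the endothelial name, which is kept here only as the label. For 10 leukocyte markers the GFP control and cell-cell interaction ranges overlapped, at 34.8 to 98.0 CPM and 42.5 to 73.1 CPM. PTPRC was at 0 in 12 of the 18 libraries. The highest leukocyte sum, 98.0 CPM, was in GFP control 2, which was also highest for PTPRC (8.06 CPM), LCP1, CORO1A and LCK. The other leukocyte markers with a row peaked in other libraries. The part of these differences in the results below was not tested.

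**Figure D1:**
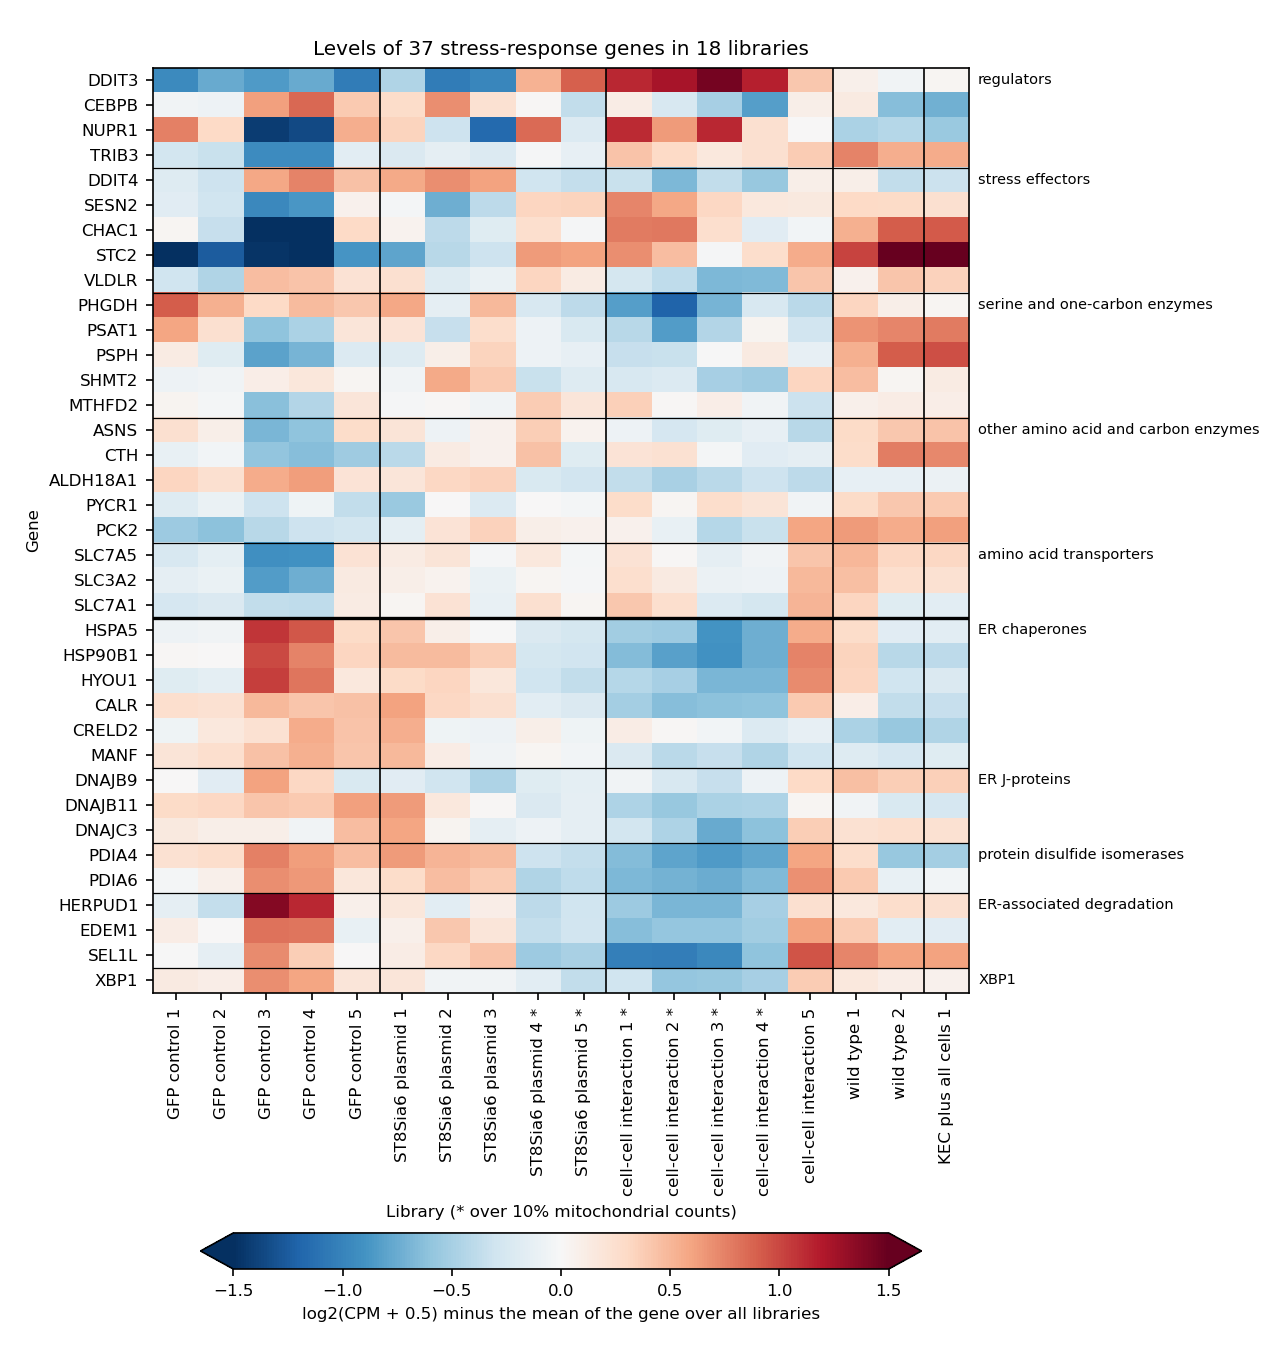
Rows are the 37 genes, grouped by role with the amino acid stress genes above the thick line, and columns are the 18 libraries in order of label. Colour gives log2(CPM + 0.5) minus the mean of that gene over all libraries, and an asterisk marks the 6 libraries with more than 10% mitochondrial counts. Cell-cell interaction 1 to 4 lie below GFP control for 13 of the 15 ER folding genes, and cell-cell interaction 5 lies above every library with an asterisk for 13 of the 15. The shares over all genes are 22.5% and 30%.

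Between cell-cell interaction and GFP control, calls went in both directions among the amino acid stress genes, and the ER folding genes that passed were all lower. Among the 22 amino acid stress genes, 6 rose (DDIT3, TRIB3, SESN2, STC2, CTH and PYCR1) and 3 fell (DDIT4, PHGDH and ALDH18A1). Among the 15 ER folding genes, none rose and 6 fell (CALR, MANF, DNAJB11, PDIA4, HERPUD1 and XBP1), and the other 9 also had negative fold changes without passing. The test was edgeR's quasi-likelihood test, two-sided, at a Benjamini-Hochberg adjusted p under 0.05 over all genes, and it called 20.8% of 13951 genes higher and 18.7% lower. The 6 of 37 genes that rose were not above that share, and the 9 that fell were only somewhat above it. The median log2 fold change was 0.40 for the amino acid stress genes, -0.62 for the ER folding genes and -0.02 for all genes tested, and the difference between both groups of genes was not tested. With cell-cell interaction 5 alone the ER folding median was 0.07. Labels did not overlap for 5 genes on the higher side and 4 on the lower side, against 11.7% and 12.9% of all genes.

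**Figure D2:**
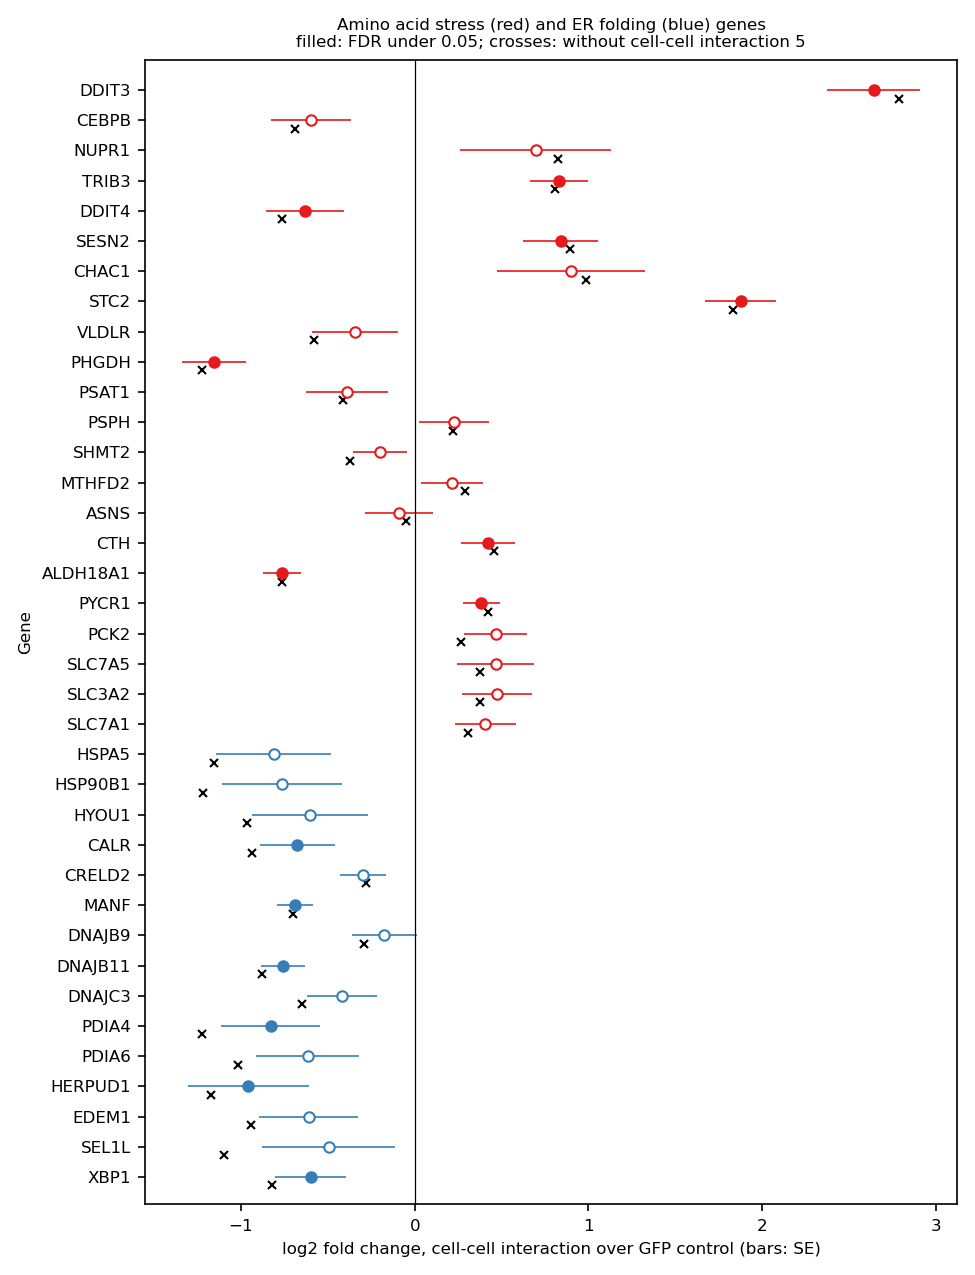
Each row is a gene and the x axis is the log2 fold change of cell-cell interaction over GFP control. Circles with bars give the value and its standard error over 5 and 5 libraries, red for amino acid stress and blue for ER folding, filled where the adjusted p is under 0.05, and crosses give the value without cell-cell interaction 5. DDIT3 and STC2 lie farthest to the right at 2.64 and 1.88, and all 15 blue circles lie left of 0.

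Of the regulators, DDIT3, a transcription factor linked to cell death under lasting stress (chromosome 5, 22785441 to 22789829, minus strand in build susScr11), showed the widest change between these labels. Its levels were 0.593, 0.755, 0.683, 0.760 and 0.525 CPM in the GFP control libraries, 1.06, 0.527, 0.582, 2.55 and 3.44 CPM in the libraries labelled ST8Sia6 plasmid and 4.16, 4.49, 5.23, 4.27 and 2.30 CPM in the cell-cell interaction libraries. It stood at 1.74 and 1.55 CPM in wild type and 1.66 CPM in KEC plus all cells. Every cell-cell interaction library lay above every GFP control library, and the 6 libraries with more than 10% mitochondrial counts lay above the other 12, a pattern shown by 7.68% of all genes. The log2 fold change over GFP control was 2.64 ± 0.27 (SE, adjusted p = 0.000137). DDIT3 is a low gene here, with a smallest count of 13 in a library, so its precision is limited by counting as well. TRIB3, a pseudokinase that ATF4 and DDIT3 induce and that restrains both (chromosome 17, 34807534 to 34816451, minus strand), had 37.1, 35.6, 23.2, 23.1 and 39.99 CPM in the GFP control libraries, 38.4, 40.95, 38.7, 44.1 and 41.3 CPM in the libraries labelled ST8Sia6 plasmid and 60.3, 55.4, 49.997, 52.9 and 58.3 CPM in the cell-cell interaction libraries. It reached 75.4 and 65.9 CPM in wild type and 65.997 CPM in KEC plus all cells, above every other library. Cell-cell interaction libraries were all higher than GFP control and ST8Sia6 plasmid libraries, and TRIB3 rose by 0.83 ± 0.17 log2 over GFP control (adjusted p = 0.00355).

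CEBPB and NUPR1, the other regulators, did not pass that test. CEBPB, a transcription factor that pairs with ATF4 and DDIT3, went from 167 ± 47.4 CPM (SD) in GFP control to 108 ± 28.4 CPM in cell-cell interaction, a log2 fold change of -0.60 ± 0.23 (adjusted p = 0.0581). NUPR1, a small stress-induced chromatin protein, had 53.6, 38.8, 11.4, 12.01 and 46.4 CPM in the GFP control libraries and 69.2, 49.5, 69.5, 37.5 and 31.7 CPM in the cell-cell interaction libraries, with a log2 fold change of 0.70 ± 0.44 (adjusted p = 0.223). GFP control 3 and 4 were far below the other GFP control libraries for NUPR1. The gene model of NUPR1 spans 108153 bases for a length of 730 bases, and that of ASNS spans 190808, so counts under these symbols may hold reads of neighbouring genes.

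ATF4 itself had no row under its symbol. A gene model without a symbol (chromosome 5, 8738880 to 8745225) covered 81.1% of the RefSeq ATF4 gene on assembly Sscrofa11.1, and it had 375, 319, 199, 201 and 383 CPM in the GFP control libraries. It had 343, 306, 291, 454 and 376 CPM in ST8Sia6 plasmid and 428, 371, 355, 329 and 285 CPM in cell-cell interaction. These ranges overlapped, and GFP control 3 and 4 were again the lowest of all. The model reaches beyond ATF4, and ATF4 protein is set mainly by translation, which RNA levels do not show. The model without a symbol that covers SDF2L1 was 8.61 times as long as the RefSeq gene, so its values are not given as SDF2L1.

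Among the stress effectors, STC2, a secreted glycoprotein that limits calcium entry (chromosome 16, 50989432 to 51004484, plus strand), had the widest range of all 37 genes. It had 7.03, 9.21, 7.77, 5.96 and 11.9 CPM in the GFP control libraries, 12.8, 16.7, 18.1, 35.2 and 34.5 CPM in the libraries labelled ST8Sia6 plasmid and 36.8, 31.2, 22.2, 27.2 and 33.3 CPM in the cell-cell interaction libraries. Wild type held 45.9 and 105 CPM and KEC plus all cells 102 CPM, so its highest library exceeded its lowest 17.6-fold. GFP control was below every library of the other labels, and ST8Sia6 plasmid 4 and 5 lay among the cell-cell interaction libraries. STC2 rose by 1.88 ± 0.20 log2 in cell-cell interaction over GFP control (adjusted p = 0.000205). The low GFP control values of STC2 were part of what drew attention to it, and this comparison uses those same 5 libraries.

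SESN2, a sensor that holds back the growth kinase mTORC1 when leucine is short (chromosome 6, 85324228 to 85348044, plus strand), had 47.8, 43.8, 27.3, 29.1 and 56.6 CPM in the GFP control libraries, 53.03, 32.2, 41.1, 67.8 and 67.9 CPM in the libraries labelled ST8Sia6 plasmid and 90.3, 81.3, 66.9, 60.4 and 59.6 CPM in the cell-cell interaction libraries. No cell-cell interaction library fell as low as the highest GFP control library, GFP control 5, and SESN2 rose by 0.84 ± 0.21 log2 (adjusted p = 0.0109). CHAC1, an enzyme that breaks down glutathione and a sensitive ATF4 target (chromosome 1, 130360513 to 130363308, minus strand), had 25.3, 19.3, 6.14, 6.92 and 30.4 CPM in the GFP control libraries, 25.6, 18.6, 21.6, 29.5 and 24.4 CPM in the libraries labelled ST8Sia6 plasmid and 42.8, 42.97, 29.5, 21.9 and 23.99 CPM in the cell-cell interaction libraries. GFP control 3 and 4 lay far below the rest and the labels overlapped, so that a log2 fold change of 0.90 ± 0.43 did not pass (adjusted p = 0.114). DDIT4, another inhibitor of mTORC1, went the other way, from 224 ± 69.1 CPM (SD) to 142 ± 30.8 CPM, a log2 fold change of -0.63 ± 0.22 (adjusted p = 0.0443). VLDLR, a lipoprotein receptor raised by ATF4, had a log2 fold change of -0.34 ± 0.25 and did not pass (adjusted p = 0.287).

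**Figure D3:**
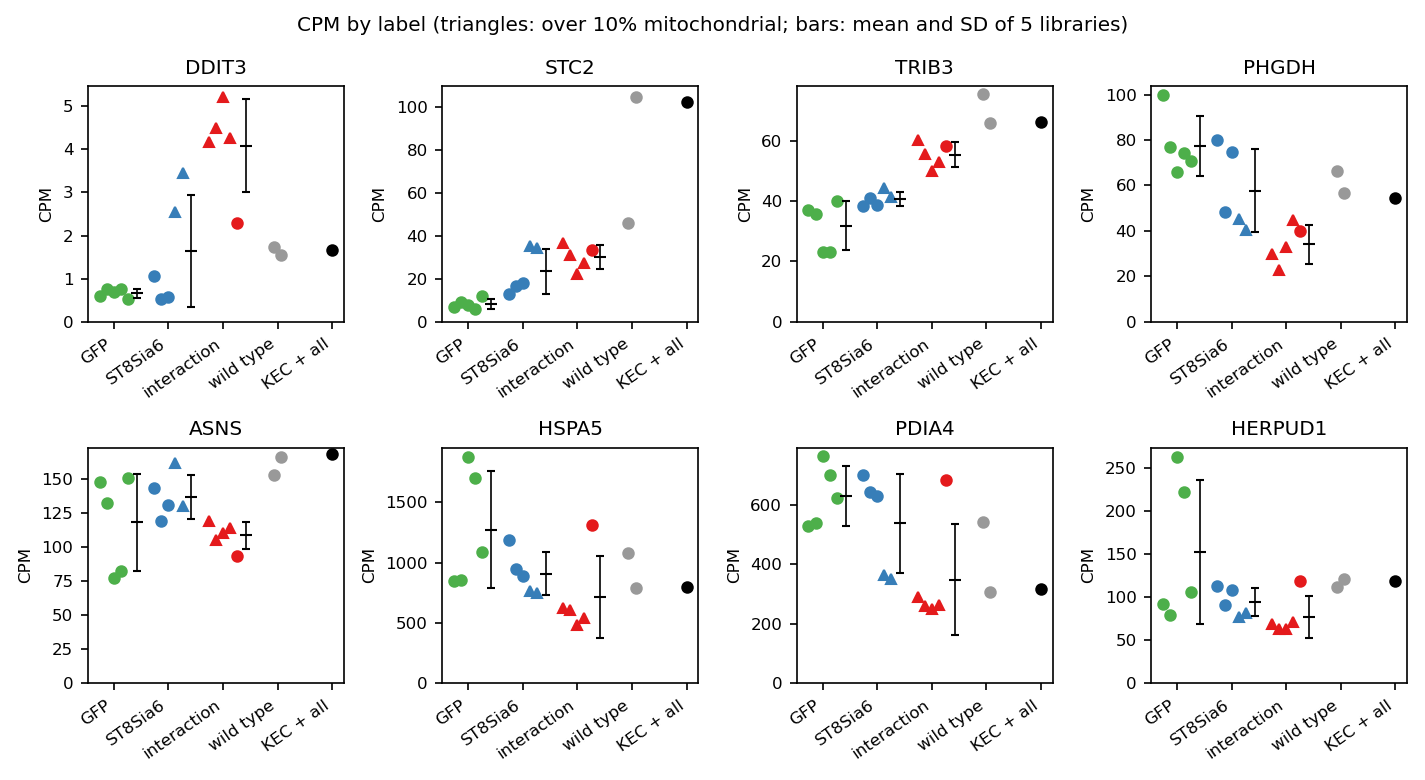
Each panel is a gene, with CPM on a linear axis from 0 and libraries grouped by label. Points are single libraries, triangles have more than 10% mitochondrial counts, and black bars give the mean and SD of the 5 libraries of a label. For HSPA5, PDIA4 and HERPUD1 the circle of cell-cell interaction 5 (1314, 683 and 119 CPM) lies above the 4 triangles of its label.

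The serine and one-carbon enzymes did not move together. PHGDH, the first enzyme of serine synthesis from glucose (chromosome 4, 101408308 to 101478144, minus strand), had 99.9, 76.9, 65.8, 74.2 and 70.7 CPM in the GFP control libraries, 79.8, 48.4, 74.8, 45.01 and 40.2 CPM in the libraries labelled ST8Sia6 plasmid and 29.8, 22.8, 32.7, 44.8 and 40.001 CPM in the cell-cell interaction libraries. Its wild type libraries held 66.4 and 56.6 CPM and KEC plus all cells 54.5 CPM. All cell-cell interaction libraries were below all GFP control libraries, ST8Sia6 plasmid 2, 4 and 5 lay between 40.2 and 48.4 CPM, and PHGDH fell by 1.16 ± 0.18 log2 over GFP control (adjusted p = 0.00115). PSAT1, the next enzyme of that pathway (chromosome 1, 231142625 to 231172363, plus strand), had 177, 139, 76.8, 84.2 and 133 CPM in the GFP control libraries, 136, 91.99, 141, 111 and 99.9 CPM in the libraries labelled ST8Sia6 plasmid and 87.5, 65.4, 86.7, 121 and 96.2 CPM in the cell-cell interaction libraries. These ranges overlapped, with GFP control 3 and 4 low, and the log2 fold change was -0.39 ± 0.24 (adjusted p = 0.209). PSPH, which completes serine synthesis, SHMT2, which passes a carbon from serine to folate in mitochondria, and MTHFD2, the mitochondrial folate enzyme, had log2 fold changes of 0.23, -0.20 and 0.21, and none passed (adjusted p = 0.392, 0.327 and 0.361).

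Of the other amino acid and carbon enzymes, ASNS, asparagine synthetase and a classic ATF4 target (chromosome 9, 77318213 to 77509020, minus strand), had overlapping labels. It had 148, 132, 77.4, 82.2 and 151 CPM in the GFP control libraries, 143, 119, 131, 161 and 129.99 CPM in the libraries labelled ST8Sia6 plasmid and 119, 105, 110.1, 114 and 93.6 CPM in the cell-cell interaction libraries, and 152 and 166 CPM in wild type. Cell-cell interaction libraries lay inside the GFP control range, which GFP control 3 and 4 opened downwards, and the log2 fold change was -0.09 ± 0.20 (adjusted p = 0.724). ALDH18A1, which makes the precursor of proline (chromosome 14, 107170689 to 107221215, minus strand), had 143, 134, 168, 177 and 132 CPM in the GFP control libraries, 129.8, 142, 145, 97.6 and 93.3 CPM in the libraries labelled ST8Sia6 plasmid and 88.5, 81.5, 86.2, 92.1 and 86.5 CPM in the cell-cell interaction libraries. It was lower in each cell-cell interaction library than in each GFP control or ST8Sia6 plasmid library, and it fell by 0.76 ± 0.11 log2 over GFP control (adjusted p = 0.000786). PYCR1, which completes proline synthesis, rose by 0.38 ± 0.11 log2 (adjusted p = 0.0167), so the enzymes at the start and the end of that route changed in opposite directions.

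PCK2, the mitochondrial enzyme that turns oxaloacetate into phosphoenolpyruvate (chromosome 7, 75187194 to 75197733, minus strand), had 27.7, 26.4, 30.3, 32.6 and 33.6 CPM in the GFP control libraries, 36.6, 46.999, 51.96, 43.1 and 42.6 CPM in the libraries labelled ST8Sia6 plasmid and 42.4, 37.7, 30.2, 32.2 and 61.3 CPM in the cell-cell interaction libraries. Wild type held 63.8 and 60.1 CPM and KEC plus all cells 62.7 CPM. Cell-cell interaction 5 was near the wild type level while cell-cell interaction 3 and 4 lay inside the GFP control range, and the log2 fold change of 0.47 ± 0.18 did not pass (adjusted p = 0.0612). CTH, which makes cysteine from cystathionine, rose by 0.42 ± 0.15 log2 with overlapping labels (adjusted p = 0.0481).

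All 3 amino acid transporter genes had positive fold changes in cell-cell interaction and none passed. SLC7A5, the light chain of the large neutral amino acid exchanger (chromosome 6, 1545940 to 1574288, plus strand), had 214, 229, 134, 134 and 294 CPM in the GFP control libraries, 276, 289.9, 249.5, 283 and 248 CPM in the libraries labelled ST8Sia6 plasmid and 295, 255, 229.8, 243 and 337 CPM in the cell-cell interaction libraries. GFP control 3 and 4, both at 134 CPM, were the 2 lowest libraries, and GFP control 5 lay within the cell-cell interaction range. Log2 fold changes were 0.47 ± 0.22 for SLC7A5 (adjusted p = 0.115), 0.47 ± 0.20 for its heavy chain SLC3A2 (adjusted p = 0.0792) and 0.41 ± 0.17 for the arginine and lysine carrier SLC7A1 (adjusted p = 0.0835). Without GFP control 5, which the authors' deposited table weighs on another side, SLC7A5 (0.60, adjusted p = 0.0414) and SLC3A2 (0.56, adjusted p = 0.0460) passed.

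Turning to the ER folding genes, HSPA5, the main Hsp70 chaperone of the ER (chromosome 1, 265930045 to 265934904, minus strand), had 843, 856, 1878, 1700.1 and 1091 CPM in the GFP control libraries, 1189, 948, 889, 764 and 744 CPM in the libraries labelled ST8Sia6 plasmid and 620.5, 609, 479, 538 and 1314 CPM in the cell-cell interaction libraries. Wild type held 1078 and 791 CPM and KEC plus all cells 801 CPM. Cell-cell interaction 1 to 4 were below every other library, cell-cell interaction 5 lay inside the GFP control range, and GFP control 3 and 4 were the highest. With 5 libraries the log2 fold change over GFP control was -0.81 ± 0.33 and did not pass (adjusted p = 0.0692), and without cell-cell interaction 5 it was -1.16 (adjusted p = 0.00451). Per length, CALR (520 CPM per kb), HSPA5 (333) and HSP90B1 (218) had the highest median levels of the 37 genes over all libraries, while DDIT3 had 1.80 CPM per kb.

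For HSP90B1, HYOU1 and CALR, too, cell-cell interaction 1 to 4 were below every other library and cell-cell interaction 5 lay inside the GFP control range, whereas for CRELD2 and MANF the value of cell-cell interaction 5 lay among those of cell-cell interaction 1 to 4. HSP90B1, the ER Hsp90, had 773, 766, 1512, 1273 and 956 CPM in GFP control and 484, 432, 406, 459.5 and 1273 CPM in cell-cell interaction. The last of these values, from cell-cell interaction 5, was far above the others of its label. HYOU1, which helps HSPA5 release its nucleotide, had a log2 fold change of -0.60 ± 0.33, HSP90B1 of -0.76 ± 0.34 and CRELD2, a secreted ER stress protein, of -0.30 ± 0.13, and none of these passed (adjusted p = 0.17, 0.0976 and 0.0938). CALR, the calcium-binding lectin chaperone, fell by 0.68 ± 0.22 log2 (adjusted p = 0.0283). MANF, a small ER-resident and secreted survival factor, had 94.9, 98.7, 113, 121 and 111 CPM in GFP control and 71.4, 62.5, 65.02, 60.5 and 67.4 CPM in cell-cell interaction. All 5 cell-cell interaction libraries, the fifth among them, were below all GFP control libraries, and MANF fell by 0.69 ± 0.10 log2 (adjusted p = 0.000825).

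Among the J-proteins, partners that feed substrates to HSPA5, DNAJB11 had 71.1, 72.2, 78.04, 76.5 and 89.2 CPM in GFP control and 42.1, 38.9, 41.9, 42.1 and 59.3 CPM in cell-cell interaction. Those labels did not overlap, and DNAJB11 fell by 0.76 ± 0.13 log2 (adjusted p = 0.00159). DNAJB9, which also restrains the sensor IRE1 (chromosome 18, 36549544 to 36584130, minus strand), had 19.4, 17.1, 29.6, 24.1 and 16.5 CPM in the GFP control libraries, 17.2, 15.7, 13.9, 16.99 and 17.4 CPM in the libraries labelled ST8Sia6 plasmid and 18.7, 16.4, 15.1, 18.3 and 23.99 CPM in the cell-cell interaction libraries. These ranges overlapped at a low level, and the log2 fold change was -0.18 ± 0.19 (adjusted p = 0.475). DNAJC3, an inhibitor of eIF2 kinases and a co-chaperone, had a log2 fold change of -0.42 ± 0.20 and did not pass (adjusted p = 0.117).

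PDIA4, a protein disulfide isomerase (chromosome 9, 109252010 to 109280249, plus strand), had 529, 541, 764, 699.9 and 624 CPM in the GFP control libraries, 703, 644, 629, 363 and 351 CPM in the libraries labelled ST8Sia6 plasmid and 289, 260.00, 249.9, 262 and 683 CPM in the cell-cell interaction libraries. Libraries with more than 10% mitochondrial counts all lay between 250 and 363 CPM. Cell-cell interaction 5 lay inside the GFP control range, as did wild type 1 (544 CPM). PDIA4 fell by 0.83 ± 0.28 log2 over GFP control (adjusted p = 0.0374). Its relative PDIA6 had a log2 fold change of -0.62 ± 0.30 and did not pass (adjusted p = 0.119).

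HERPUD1, a membrane protein of the machinery that degrades misfolded ER proteins (chromosome 6, 18844576 to 18913424, plus strand), had 91.9, 78.9, 263, 222 and 106 CPM in the GFP control libraries, 113, 90.4, 108, 76.6 and 81.7 CPM in the libraries labelled ST8Sia6 plasmid and 69.1, 62.7, 62.6, 71.1 and 119 CPM in the cell-cell interaction libraries. GFP control 3 and 4 stood above all other libraries, cell-cell interaction 5 lay inside the GFP control range, and HERPUD1 fell by 0.96 ± 0.35 log2 (adjusted p = 0.0469). EDEM1, which hands glycoproteins to degradation, and SEL1L, the adaptor of the HRD1 ubiquitin ligase, had log2 fold changes of -0.61 ± 0.29 and -0.50 ± 0.38 and did not pass (adjusted p = 0.111 and 0.323). SEL1L was highest of all in cell-cell interaction 5, at 376 CPM, where cell-cell interaction 1 to 4 had 94.7 to 128 CPM. XBP1, the transcription factor whose spliced form raises many ER genes (chromosome 14, 46008377 to 46017036, minus strand), had 136, 132, 201, 186 and 140.2 CPM in the GFP control libraries, 140.1, 119, 119, 110.4 and 95.7 CPM in the libraries labelled ST8Sia6 plasmid and 101, 82.5, 83.5, 87.5 and 161 CPM in the cell-cell interaction libraries. It fell by 0.60 ± 0.21 log2 (adjusted p = 0.0384), and gene counts do not tell spliced from unspliced XBP1.

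The call on the ER folding genes rested on which libraries were compared. Cell-cell interaction 1 to 4 were below all GFP control libraries for 13 of 15 ER folding genes (22.5% of all genes did so) and for 4 of 22 amino acid stress genes. Without cell-cell interaction 5, 13 of 15 ER folding genes fell, with a median log2 fold change of -0.94, and 6 amino acid stress genes rose and 6 fell, where 24% of genes were called higher and 26.5% lower. With only the libraries under 10% mitochondrial, that is cell-cell interaction 5 alone against GFP control, none of the 37 passed, and 140 of 14761 genes (0.948%) did. In that fit the lone library is assumed to vary like GFP control. Without cell-cell interaction 5 and with it alone, the log2 fold changes were 2.79 and 1.75 for DDIT3, 1.83 and 1.94 for STC2, 0.81 and 0.83 for TRIB3, and -1.22 and -1.0 for PHGDH. Among the amino acid stress genes, NUPR1 (0.82 and -0.09), VLDLR (-0.58 and 0.26), SHMT2 (-0.37 and 0.25) and MTHFD2 (0.29 and -0.24) had opposite signs in these fits. All 15 ER folding genes were negative without cell-cell interaction 5, and 9 of the 15 were positive with it alone. Examples are SEL1L (-1.10 and 0.68) and HSP90B1 (-1.22 and 0.23). MANF, at -0.70 and -0.72, moved least among the ER folding genes called over all 5 libraries.

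**Figure D4:**
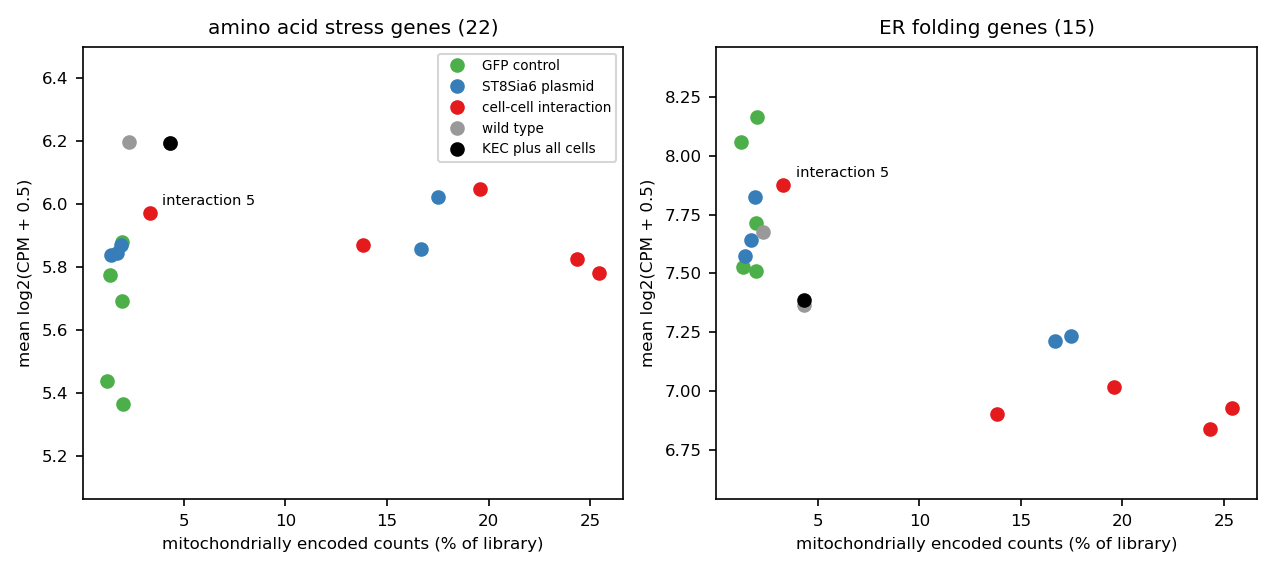
Points are the 18 libraries, coloured by label, with the share of mitochondrially encoded counts on the x axis and the mean log2(CPM + 0.5) of the arm on the y axis, left for 22 amino acid stress genes and right for 15 ER folding genes. The 6 libraries to the right lie at 6.84 to 7.23 for ER folding, and cell-cell interaction 5 lies at 7.88.

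Leaving out any single library kept the calls of DDIT3, TRIB3, SESN2, STC2, PHGDH, ALDH18A1, MANF and DNAJB11 in 10 of 10 fits. This is a weak check where a library close to the one left out stayed in the fit. GFP control 1 and 2, GFP control 3 and 4, and cell-cell interaction 1 and 2 and 3 and 4 were close for genes such as HSPA5 and HERPUD1. CALR, PDIA4, HERPUD1 and XBP1 each lost the call without GFP control 3, without GFP control 4 and without each of cell-cell interaction 1 to 4, so the number of the 37 genes that fell was 4 in each of those fits and 19 without cell-cell interaction 5. DDIT4 lost it in 7 of the 10 fits, CTH in 8 and PYCR1 in 3, namely without GFP control 5, cell-cell interaction 3 or cell-cell interaction 4.

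GFP control itself was not uniform in these genes. GFP control 3 and 4 were both below GFP control 1, 2 and 5 for 12 of 22 amino acid stress genes and both above them for 11 of 15 ER folding genes. The shares over all genes were 29.4% below and 34.1% above. Mean log2(CPM + 0.5) over the ER folding genes was 8.16 and 8.06 in GFP control 3 and 4 and 7.53, 7.51 and 7.72 in GFP control 1, 2 and 5. Over the amino acid stress genes it was 5.36 and 5.44 in that pair and 5.77, 5.69 and 5.88 in the other 3. The pair did not stand apart in mitochondrial share, which was under 4.32% in all 5.

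The comparison of libraries labelled ST8Sia6 plasmid with GFP control is the one that prompted the list, so its values are a description from which nothing is read. Fold changes were positive for 17 of 22 amino acid stress genes (median log2 0.29) and for none of the 15 ER folding genes (median -0.25), where 52.7% of all genes had positive values (median 0.02). These values rest on the same 5 GFP control libraries, GFP control 3 and 4 among them, and on libraries whose ST8SIA6 counts did not follow the label.

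Against the libraries labelled ST8Sia6 plasmid, with the same limit on that label, none of the 37 genes differed in cell-cell interaction by edgeR's quasi-likelihood test, where 22 of 13849 genes (0.159%) passed. At an unadjusted p under 0.05 there were 10 of the 37, against 32.6% of all genes. DESeq2 called 2 higher and 3 lower, where 19.6% of genes were called, and limma-voom called 1, where 2.08% were. TRIB3 had the lowest adjusted p at 0.0531, with a log2 fold change of 0.48 ± 0.09. Labels did not overlap for TRIB3 on the higher side (3.34% of genes) and for ALDH18A1 and MANF on the lower side (5.31% of genes). Without ST8Sia6 plasmid 4 and 5, the libraries that the authors' deposited table weighs with co-cultures, 4 rose and 5 fell, where 19.9% of genes were higher and 15.5% lower. DDIT3 (2.50, adjusted p = 0.00321), STC2 (0.94, adjusted p = 0.00805), SESN2 (0.78, adjusted p = 0.0196) and TRIB3 (0.50, adjusted p = 0.00796) rose. ALDH18A1 (-0.66, adjusted p = 0.00315), DDIT4 (-0.96, adjusted p = 0.00542), PHGDH (-0.98, adjusted p = 0.0141), DNAJB11 (-0.66, adjusted p = 0.0228) and MANF (-0.53, adjusted p = 0.0170) fell. Among libraries over 10% mitochondrial only, cell-cell interaction 1 to 4 against ST8Sia6 plasmid 4 and 5, VLDLR was the 1 of 37 that passed (-0.67, adjusted p = 0.0352), where 2.46% of genes did. Leaving out cell-cell interaction 5 alone gave 1 higher and 14 lower, 12 of these ER folding genes, with 11% of genes called higher and 12.6% lower. Leaving out ST8Sia6 plasmid 5 alone gave 2 higher and 4 lower, with 10.8% and 9.34% of genes called.

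Wild type had positive log2 fold changes over GFP control for 17 of 22 amino acid stress genes and 3 of 15 ER folding genes, beside 47.5% of all genes. Over GFP control, STC2 rose by 3.17 ± 0.34 log2 (adjusted p = 0.00689) and PCK2 by 1.04 ± 0.14 log2 (adjusted p = 0.0117), and the other 35 did not pass, where 1.97% of 14496 genes were called higher and 1.19% lower. STC2 and PCK2 are the genes that prompted the list, through values of the same 5 GFP control libraries, so these calls are not independent evidence. The labels did not overlap for 13 genes on the higher side, all of the amino acid stress arm, and for 5 on the lower side, ALDH18A1 and 4 ER folding genes, against 12.9% and 12.7% of all genes. TRIB3 had a log2 fold change of 1.14 ± 0.26 (adjusted p = 0.0565), PSPH of 1.07 ± 0.29 (adjusted p = 0.0996) and CRELD2 of -0.81 ± 0.19 (adjusted p = 0.0646), and none of these passed. PCK2 lost its call without wild type 2 (1.07), and STC2 stayed past the threshold in each of 7 fits with a library left out. The fits without wild type 1 or without wild type 2 keep only 1 wild type library. Without the libraries weighed on another side, wild type 1 and GFP control 5, again only 1 wild type library was left. PCK2 also lost its call there (1.06), and STC2 had a log2 fold change of 3.82. Wild type 1 and 2 differed from each other, with 45.9 and 105 CPM for STC2 and 1078 and 791 CPM for HSPA5, and wild type 1 is 1 of the 4 libraries against their labels. KEC plus all cells and wild type 2 were within 1.09-fold of each other for each of the 37 genes. These libraries were close outside the 37 genes too, with endothelial marker sums of 182 and 181 CPM and leukocyte sums of 33.6 and 33.7 CPM. A value over all genes is not given here. The 3 comparisons with GFP control share its 5 libraries, so their values are not independent of each other.

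The authors' deposited comparison of GFP control with co-cultured GFP cells, by weights GFP control 1 to 4 against cell-cell interaction 1 and 2 and ST8Sia6 plasmid 4 and 5, had an FDR under 0.05 for 49.5% of genes. Of the 15 ER folding genes in the authors' deposited table, 12 were higher in GFP control and none lower. Of the 22 amino acid stress genes, 10 were lower in GFP control and 3 higher. The share of all genes in each direction is not given here, so these counts by direction have no background beside them. The deposited log2 fold changes, GFP control over co-culture, were 0.95 for HSPA5 (FDR 0.00974), -2.38 for DDIT3 (FDR 2.49e-08) and -2.20 for STC2 (FDR 7.28e-20) in the authors' deposited table. For ST8Sia6 plasmid against co-cultured ST8Sia6 cells, 5 of the 37 were higher and 4 lower in the authors' deposited table, where 25.2% of genes passed. Between the co-cultures of GFP and of ST8Sia6 cells, none of the 37 passed in the authors' deposited table, where 4.74% of genes did.

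Other genes of the pathway were taken from 7 lists of 77 genes, of which 70 were tested, and 7 rose and 13 fell in cell-cell interaction over GFP control. Neither count was above the shares of all genes called higher and lower, 20.8% and 18.7%. Of 15 further ER folding and translocation genes, 9 fell and none rose (list median log2 -0.69), among them SSR3 of the translocon-associated complex (-0.66 ± 0.09, adjusted p = 0.000703), the translocon pore gene SEC61A1 (-0.71 ± 0.17, adjusted p = 0.00708) and the coat gene SEC24D (-0.69 ± 0.17, adjusted p = 0.00977). None of 8 further ER-associated degradation genes passed, and OS9, EDEM2 and VCP had the lowest p-values there, with log2 fold changes of -0.77, -0.43 and -0.27. Of 11 sensors and eIF2 factors, 3 rose. These were PPP1R15A, which brings a phosphatase to eIF2 (1.62 ± 0.31, adjusted p = 0.00290), ERN1, the gene of IRE1 (0.89 ± 0.16, adjusted p = 0.00201), and ATF6B (0.64 ± 0.09, adjusted p = 0.000695).

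Of 4 other stress transcription factors ATF3 rose (0.73 ± 0.16, adjusted p = 0.00604), while ATF5 (0.54) and CREB3L2 (-0.61) did not pass. Among 19 cytosolic aminoacyl-tRNA synthetases 1 rose and 2 fell, among them CARS1, which rose (0.69 ± 0.14, adjusted p = 0.00373), and KARS1, which fell (-0.42 ± 0.10, adjusted p = 0.00716). Among 6 other amino acid transporters SLC6A9 rose (0.93 ± 0.28, adjusted p = 0.0241) and SLC38A1 fell (-1.004 ± 0.26, adjusted p = 0.0124), and the cystine carrier SLC7A11 did not pass (0.73 ± 0.34, adjusted p = 0.105). In wild type over GFP control SLC7A11 rose by 1.73 ± 0.14 log2 (adjusted p = 0.00225). Among 7 other genes linked to ATF4, VEGFA rose (0.89 ± 0.22, adjusted p = 0.00977), GOT1 fell (-0.79 ± 0.11, adjusted p = 0.000648) and CBS did not pass (0.47). These genes share libraries and mitochondrial shares with the 37, and the part of those differences was not tested.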

How the data were processed

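Raw whole-number counts per gene for 18 libraries were used as deposited by the authors. Build susScr11 is named per the submitters' processing notes, with STAR 2.7.10a, Subread 2.0.3 (featureCounts), FastQC 0.11.5 and edgeR 3.40.2. Annotation, strand setting and treatment of multi-mapping reads: not given in the sources used here. The log2 CPM and log2 fold changes, the p-values and FDRs, and a score column holding a signed fold change were computed by the authors and deposited in 2 tables; of these, log2 fold changes and FDRs were used for the authors' comparisons. Gene lengths, the other column, were deposited by the authors and used for CPM per kb and spans.

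Members and gene lists were chosen with earlier results of these data known. Groups come from the treatment label, and replicate numbers only name libraries. Each comparison used the libraries of its 2 labels, edgeR 4.0.16 with filterByExpr, TMM scaling and the robust quasi-likelihood test, two-sided, with Benjamini-Hochberg adjustment over all genes tested. CPM in the text were scaled by TMM across the 18 libraries, and standard errors come from the quasi-likelihood F statistic. Alternatives used DESeq2 1.42.0, limma-voom (limma 3.58.1), other scaling, no filter, 1 fit of all groups and sets of libraries (R 4.3.3). The test was checked on simulated counts. Side assignments are least-squares weights of library log2 CPM on the authors' deposited fold changes. Genes given by library were 14 fixed names and the 4 largest rises and 4 largest falls in cell-cell interaction over GFP control; in each pathway list the 3 lowest p-values were named. HSP90B1, MANF, DNAJB11 and NUPR1 were also given by library, and SLC7A11 in wild type named, after their values were seen. One result on a gene outside the 37 is not reported here.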

Additional observations from a re-analysis of the deposited data

Results flagged for a closer look

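In 111 sets of 5 libraries (37 genes under 3 labels), 15 held a library far from the other 4 by Dixon's test. The sets share libraries, so their flags are not independent and are not set against a rate expected by chance. A share over all genes is not given here. Cell-cell interaction 5 was the far library in 12 of the 15. Its CPM was 1314 for HSPA5 (others 479 to 620), 1273 for HSP90B1 (406 to 484), 716 for HYOU1 (272 to 326) and 1577 for CALR (773 to 848). For the folding enzymes it was 683 for PDIA4 (250 to 289), 379 for PDIA6 (141 to 149) and 59.3 for DNAJB11 (38.9 to 42.1). It was 119 for HERPUD1 (62.6 to 71.1), 234 for EDEM1 (98.8 to 107), 376 for SEL1L (94.7 to 128), 161 for XBP1 (82.5 to 101) and 239 for VLDLR (112 to 148). This library is also the one of its label under 10% mitochondrial.

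ST8Sia6 plasmid 1 was the far library for CRELD2 (43.9 CPM, others 28.4 to 31.8), MANF (116 CPM, others 79.8 to 90.1) and DNAJC3 (188 CPM, others 112 to 127). KEC plus all cells, which entered no comparison, had 1.66 CPM of DDIT3 and 102 CPM of STC2, which is 2.18 and 8.57 times the highest GFP control library.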

How the results depend on the processing

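Of the 15 calls of cell-cell interaction over GFP control, 8 held with each library left out in turn, a weak check where a close library stayed in the fit. With only libraries under 10% mitochondrial, this comparison called 140 genes, 0 members higher and 0 lower, and PDIA4 turned from -0.83 to 0.073; that fit has 1 cell-cell interaction library. HERPUD1 also lost its call by limma-voom and with mitochondrially encoded genes left out, CTH without a filter and with all groups in 1 fit, and CTH, PYCR1 and DDIT4 without GFP control 5. The count of genes in cell-cell interaction over ST8Sia6 plasmid was the least stable, at 2705 by DESeq2 (2 members higher, 3 lower), 288 by limma-voom (1 higher), 1320 with all groups in 1 fit (3 lower), 151 with mitochondrially encoded genes left out (1 higher), 5097 without libraries on another side (4 higher, 5 lower), 2 under and 352 over 10% mitochondrial (1 lower). Wild type over GFP control gave 1410 genes by DESeq2 (7 members higher, 4 lower), 6 higher and 2 lower with all groups in 1 fit, and 277 genes (1 member higher) without wild type 1 and GFP control 5. With all groups in 1 fit, the count of all genes called for wild type over GFP control is not given here. The 6 and 2 members called in that fit therefore have no background beside them. DESeq2 called 11 genes in ST8Sia6 plasmid over GFP control. The cause of these moves was not tested.

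Leaving out single libraries gave 0 to 1 genes for ST8Sia6 plasmid over GFP control, 4099 to 7130 genes with 4 to 6 members higher and 4 to 19 lower for cell-cell interaction over GFP control, 0 to 3308 genes with 0 to 2 higher and 0 to 14 lower over ST8Sia6 plasmid, and 65 to 407 genes with 1 to 2 higher and 0 lower for wild type. The highest counts over ST8Sia6 plasmid came without cell-cell interaction 5 (3308) and without ST8Sia6 plasmid 5 (2806), and the lowest for wild type without wild type 2 (65). Mean levels by role kept within the spread between libraries with a pseudocount of 0.1 or 1. No paired analysis was possible because the labels give no replicate numbers that groups share. Promoter motifs and their alternative were not run. The depth limits DDIT3, with counts down to 13.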
